A study of Mus musculus with 8 samples.

Results

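Wdr72, Wdr7, Dmxl1, Dmxl2 and Rogdi encode proteins tied to the assembly of the vacuolar proton pump, the V-ATPase. They were chosen by name, as Wdr72, its paralog Wdr7 and the genes of the proteins that work with them, and make up 5 of the 54532 genes in the count table. All 5 passed the filter on low counts that left 16440 genes to test. RNA was sequenced from enamel organs of mouse first molars at postnatal day 5 (P5), when ameloblasts secrete enamel matrix, and at postnatal day 12 (P12), when enamel matures. All mice were wild type C57BL/6 with no treatment, and each age had 4 libraries, numbered 1, 3, 4 and 5 at P5 and 1 to 4 at P12. Each library pooled the enamel organs of 5 pups, so values are averages over pups and over all cells of the dissected tissue. The only comparison in the design is P12 against P5, and it asks how expression differs between the secretory and the maturation stage.

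The V-ATPase pumps protons across membranes and acidifies endosomes, lysosomes and secretory vesicles. Its cytosolic V1 sector splits ATP and its membrane V0 sector carries the protons, and the pump is switched off and on by taking the 2 sectors apart and joining them again. In yeast the RAVE complex joins them. In mammals the large rabconnectin-3 alpha proteins Dmxl1 and Dmxl2, the rabconnectin-3 beta protein Wdr7 or its paralog Wdr72, and Rogdi are the related proteins. Mutations of WDR72 cause hypomaturation amelogenesis imperfecta, an inherited defect in which enamel forms at its normal thickness but stays soft, and mutations of ROGDI cause Kohlschütter-Tönz syndrome, which joins epilepsy with amelogenesis imperfecta. Rabconnectin-3 was first known from synaptic vesicles, where it binds regulators of the small GTPase Rab3.

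The libraries held between 16574548 and 22013456 counts. Values below are normalized counts, which are counts divided by the effective size of the library and multiplied by the mean effective size of 19006280, and where the values of an age are listed they follow the order of the library numbers. The labelled tissue was checked against marker genes. Secretory ameloblast markers (Amelx, Ambn, Enam and Mmp20) took 23.2% to 25.5% of all counts at P5 and 1.47% to 3.52% at P12, and maturation markers (Klk4, Amtn, Odam and Slc24a4) took 0.0591% to 0.202% and 2.20% to 2.72%. The labels call the cells epithelial, but 3 collagen genes of mesenchyme took 3.98% to 4.91% of counts at P5 and 4.10% to 5.99% at P12. Odontoblast markers (Dspp and Dmp1) took 0.646% to 0.844% at P5 and 0.893% to 1.10% at P12. By normalized counts Dspp had a log2 fold change of 0.08 (edgeR adjusted p = 0.64) and Dmp1 one of -0.42 (edgeR adjusted p = 0.049). The share of dental epithelium markers went from between 0.433% and 0.457% to between 1.495% and 1.997%, and that of oral mucosa markers from between 0.00204% and 0.00387% to between 0.0179% and 0.186%. Endothelial markers took 0.00893% to 0.0108% of counts at P5 and 0.0226% to 0.0238% at P12, and those of macrophages and Schwann cells were also higher in every P12 library than in any P5 library. The part of these shifts in the changes of the 5 genes was not tested. None of the listed markers was at 0 in all libraries. P5 library 5 had the lowest maturation marker share, and P12 library 4 the lowest shares of oral mucosa (at least 0.115% in the other P12 libraries) and of osteoclast markers.

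At P12 against P5, Wdr72 rose, Dmxl1 rose, Dmxl2 and Rogdi fell, and Wdr7 did not pass the test. The sizes ran from 15.7-fold higher for Wdr72 to 4.60-fold lower for Rogdi. With edgeR's quasi-likelihood test, Benjamini-Hochberg adjusted over all 16440 genes at a threshold of 0.05, 4 of the 5 genes were called, 2 in each direction. Of all genes tested 57.2% were called, 28.8% higher and 28.4% lower at P12, so a call alone sets little apart in these data. Scaled to total counts alone, 8885 genes were higher and 2330 lower, and the calls and directions of these 4 genes were as before. The same 4 genes had no overlap between the libraries of the 2 ages, as did 52.5% of all genes tested. In such bulk samples fewer cells of a type and less RNA per cell cannot be told apart.

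**Figure D1:**
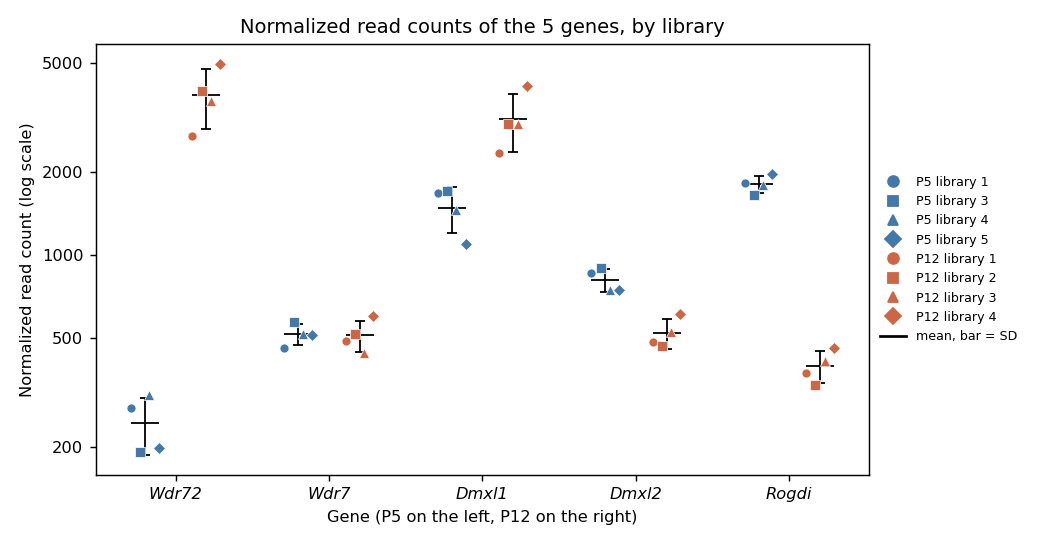
Normalized counts (log scale) of the 5 genes in each of the 8 libraries, P5 on the left and P12 on the right of each gene, with the mean and SD of 4 libraries. Wdr72 rises from a mean of 244 to 3823, Dmxl1 from 1487 to 3119, Dmxl2 and Rogdi fall, and the 2 ages overlap for Wdr7.

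Wdr72 (ENSMUSG00000044976; chromosome 9, 74110356 to 74283308 on the forward strand, GRCm38) encodes a protein of WD40 repeats that is needed for vesicle traffic in maturation ameloblasts. It had normalized counts of 278, 192, 308.5 and 199 at P5, against 2705, 3968, 3641 and 4977 at P12. Every P12 library lay far above every P5 library, and among the P12 libraries, library 1 was lowest and library 4 highest. The means were 244 ± 57.7 at P5 and 3823 ± 937 at P12 (SD, n = 4 each). The log2 fold change was 3.97 with a standard error of 0.21 (edgeR adjusted p = 4.9e-08). Only 131 of the 16440 tested genes had a higher log2 fold change. The exact two-sided permutation test gave p = 0.0286, the smallest that 4 against 4 libraries allow. These values rest on raw counts of 172 to 234 per library at P5 and of 3689 to 4957 at P12, and no other annotated gene shares its exons.

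With each library left out in turn the log2 fold change of Wdr72 lay between 3.82 and 4.10, the lower value without P12 library 4. Without P5 library 5 and P12 library 4 together, the 2 libraries that stood apart, it was 3.74, which is 13.3-fold. P5 library 5 had far lower maturation markers than the other P5 libraries, for example 332 normalized counts of the sodium-calcium exchanger gene Slc24a4 against 1581 to 2269. Wdr72 in that library was at 199, between the values of P5 libraries 3 and 1. The share of osteoclast markers at P12 was lowest in library 4, at 0.0246%, where Wdr72 was highest, and highest in library 2, at 0.0657%. The maturation markers Klk4, Amtn and Slc24a4 were, like Wdr72, lowest at P12 in library 1 and highest in library 4, while Odam was highest in library 2. The part of tissue makeup in the level of Wdr72 was not tested.

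Wdr7 (ENSMUSG00000040560; chromosome 18, 63708695 to 63989760 on the forward strand) encodes the rabconnectin-3 beta protein found in many tissues. Its normalized counts were 459, 569, 514 and 512 at P5, against 488, 516, 439 and 597 at P12. All P5 values lay within the range of the P12 values. The means were 514 ± 45.0 and 510 ± 66.3 (SD, n = 4 each), and the log2 fold change was -0.01 with a standard error of 0.10 (edgeR adjusted p = 0.93). The interval of 1.96 standard errors ran from -0.21 to 0.19 on the log2 scale. The log2 fold changes of the other 4 genes lie outside that interval. Scaled to total counts alone its log2 fold change was 0.36 (adjusted p = 0.0063), but the median of all genes tested was then at 0.38, and Wdr7 was at -0.02 relative to that median. Genes on the opposite strand share 2.46% of its annotated exonic bases. Among them, Txnl1 shares 117 bases and had 766 to 1329 counts per library, beside 357 to 665 for Wdr7.

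Dmxl1 (ENSMUSG00000037416; chromosome 18, 49832670 to 49965473 on the forward strand) encodes the paralog of rabconnectin-3 alpha, which is found in many tissues. It had normalized counts of 1683, 1717, 1453 and 1097 at P5, against 2356, 2995, 2996 and 4130 at P12. The ages did not overlap, and the spread within each age was wide, with P5 library 5 lowest and P12 library 4 highest. The means were 1487 ± 286 and 3119 ± 738 (SD, n = 4 each). The log2 fold change was 1.07 with a standard error of 0.17 (edgeR adjusted p = 0.00029; exact two-sided permutation p = 0.0286), or 2.10-fold. Without P5 library 5 and P12 library 4 together it was 0.78, still past the threshold.

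Dmxl2 (ENSMUSG00000041268; chromosome 9, 54365158 to 54501626 on the reverse strand) encodes rabconnectin-3 alpha, a large protein of synaptic vesicles and of other secretory cells. Its normalized counts were 860, 899, 745 and 745 at P5, against 480, 465, 526 and 611 at P12. Every P12 library was below every P5 library, from 812 ± 79.2 to 521 ± 65.9 (SD, n = 4 each). The log2 fold change was -0.64 with a standard error of 0.10 (edgeR adjusted p = 0.00023; exact two-sided permutation p = 0.0286), or 1.56-fold lower. Scaled to total counts alone it was -0.27 (adjusted p = 0.019), and -0.65 once the median at that scaling was taken off.

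Rogdi (ENSMUSG00000022540; chromosome 16, 5008730 to 5013553 on the reverse strand) encodes the small protein related to Rav2 of yeast RAVE. It had normalized counts of 1824, 1657, 1797 and 1971 at P5, against 370, 337, 411 and 460 at P12. The ages lay far apart, and P5 library 5, low for Dmxl1, was the highest of its age for Rogdi. The means were 1812 ± 129 at P5 and 394.5 ± 53.2 at P12 (SD, n = 4 each). The log2 fold change was -2.20 with a standard error of 0.10 (edgeR adjusted p = 1.4e-08; exact two-sided permutation p = 0.0286), and 534 of the 16440 tested genes had a lower one. A predicted gene on the opposite strand, Gm42477, shares 10.2% of its exonic bases and had 1 to 19 counts per library.

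For Rogdi, the member with the largest fall, the bases upstream of its start are shown, at chr16:5013575-5013803 on the reverse strand (RefSeq, GRCm38.p6), 5′ to 3′, with each CG in capitals. They overlap no annotated exon and hold 16 CG in 229 bases.
Rogdi: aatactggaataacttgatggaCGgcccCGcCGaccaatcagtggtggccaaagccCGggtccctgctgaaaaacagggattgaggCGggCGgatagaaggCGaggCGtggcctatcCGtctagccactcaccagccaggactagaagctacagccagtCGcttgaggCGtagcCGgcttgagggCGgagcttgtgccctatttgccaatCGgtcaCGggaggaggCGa

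In the RefSeq table of promoters, the 250 bases before the start of Rogdi held 20 CG and those before the start of Dmxl2 held 54, beside a median of 6 over all entries. Both falling members, the only ones of the 5 with an entry, thus started in sequence with more CG than most.

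Markers of neurons were measured beside Dmxl2 and Rogdi, since both proteins are known from neurons. The 4 genes Snap25, Syt1, Stmn2 and Elavl4 together took 0.00407% to 0.00705% of counts at P5 and 0.00352% to 0.00415% at P12. This share was highest in P5 libraries 3 and 5. Taken singly, Syt1 and Elavl4 fell with log2 fold changes of -2.88 and -2.03 (edgeR adjusted p = 0.00029 and 0.0035). Snap25 at -0.84 and Stmn2 at -0.54 did not pass the test (edgeR adjusted p = 0.10 and 0.075). Of all genes tested 28.4% were called lower. Rogdi was lowest of its age in P5 library 3 and highest in P5 library 5, and Dmxl2 was highest in library 3 and near its lowest in library 5. The part of neurons in the fall of either gene was not tested.

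The members were set against each other as log2 ratios within each library, which do not depend on how libraries are scaled. In all 10 pairs the ratio differed between ages with no overlap of libraries (exact two-sided permutation p = 0.0286 in each pair, 0.0286 adjusted over the 10 pairs, and the smallest that the design allows). The 5 genes thus changed unequally in every pair. The 10 ratios share these 5 genes and are not independent of each other. Of all genes tested, 52.5% had no overlap between ages by themselves, and the share over all pairs of genes was not measured. Between the beta proteins, the log2 ratio of Wdr72 to Wdr7 went from -1.10 ± 0.43 at P5 to 2.88 ± 0.28 at P12 (SD, n = 4 each), a difference of 3.97. Between the alpha proteins, the ratio of Dmxl1 to Dmxl2 went from 0.86 ± 0.20 to 2.56 ± 0.21, a difference of 1.70. The widest gap was that of Wdr72 to Rogdi, at -2.91 ± 0.35 and 3.25 ± 0.31, and the narrowest that of Wdr7 to Dmxl2, at -0.66 ± 0.17 and -0.03 ± 0.17.

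The ratio of Wdr72 to Dmxl1 at P12 was 0.20, 0.41, 0.28 and 0.27 in libraries 1 to 4, with an SD of 0.09. Its SD among the P12 libraries was below those of Wdr72 to Wdr7 (0.28) and Wdr72 to Rogdi (0.31). The ratio of Dmxl2 to Rogdi had the smallest SD of the 10 at P12, at 0.05, with values of 0.37, 0.46, 0.36 and 0.41. At P5 the SDs of these 2 ratios were wider, at 0.39 and 0.23. The differences between SDs were not tested.

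**Figure D2:**
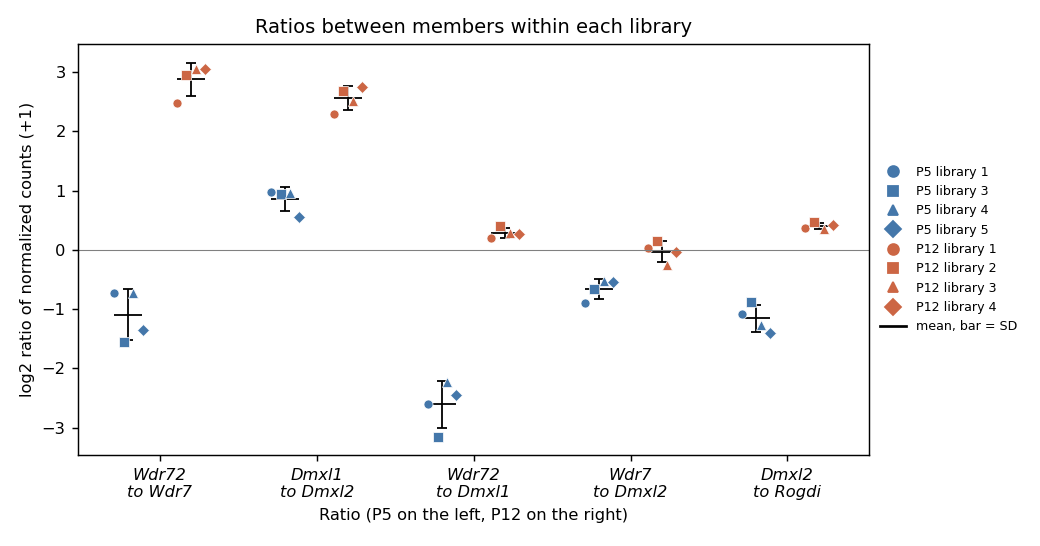
Log2 ratio of normalized counts (each with 1 added) for 5 of the 10 pairs of genes, with each library as a point, P5 on the left and P12 on the right of each ratio, and the mean and SD of 4 libraries. The libraries of the 2 ages do not overlap in any of these pairs, and the differences between the means run from 0.63 for Wdr7 to Dmxl2 up to 3.97 for Wdr72 to Wdr7.

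Levels of the 5 genes were compared per kilobase, with the gene length in the table unless another length is named. At P5 Rogdi stood first with 773 normalized counts per kilobase, followed by Wdr7 with 72.3, Dmxl1 with 67.8 and Dmxl2 with 61.1, and Wdr72 stood last with 32.6. The ranges of Wdr7 and Dmxl1 overlapped between libraries, as did those of Dmxl1 and Dmxl2, so the order of these 3 is not resolved. At P12 Wdr72 stood first with 511 ± 125 (SD, n = 4), above Rogdi with 168 ± 22.7 and Dmxl1 with 142 ± 33.7, whose ranges overlapped, and above Wdr7 with 71.7 and Dmxl2 with 39.2. Wdr72 thus went from the last of the 5 to the first with this length, although per kilobase of coding length its P5 range overlapped that of Dmxl2, and in all 4 P12 libraries its lowest value (361) exceeded the highest of any other member (196).

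Among all tested genes ordered by the level per kilobase, Wdr72 moved from place 10858 at P5 to place 1391 at P12 of 16440. Rogdi moved the other way, from 852 to 4709. Dmxl1 moved from 8373 to 5435 and Dmxl2 from 8763 to 10533, while Wdr7 was at 8152 and 8319, near the middle at both ages.

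As shares of the paralog pairs per kilobase, Wdr72 was 31.0% ± 6.31 of Wdr72 plus Wdr7 at P5 and 87.4% ± 2.25 at P12 (SD, n = 4 each). Dmxl1 was 52.3% ± 3.45 of Dmxl1 plus Dmxl2 at P5 and 78.1% ± 2.48 at P12. P5 library 5 had the lowest Dmxl1 share, at 47.1%. Per kilobase of coding length in GENCODE M21 the Dmxl1 share was 64.6% ± 3.22 at P5 and 85.6% ± 1.80 at P12 (SD, n = 4 each), and at least 59.8% in every P5 library, so which of these paralogs was higher at P5 depends on the length used. The table gives Wdr7 a length of 7109 bases, whereas the exons in GENCODE M21 span 10188 bases, and with that length Wdr7 took place 4 at P5, behind Dmxl1 and Dmxl2, and kept its place at P12. The level of Wdr7 per kilobase was then 50.4 at P5 and 50.1 at P12, and the share of Wdr72 in the pair 39.1% ± 7.05 and 90.8% ± 1.71 (SD, n = 4 each).

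**Figure D3:**
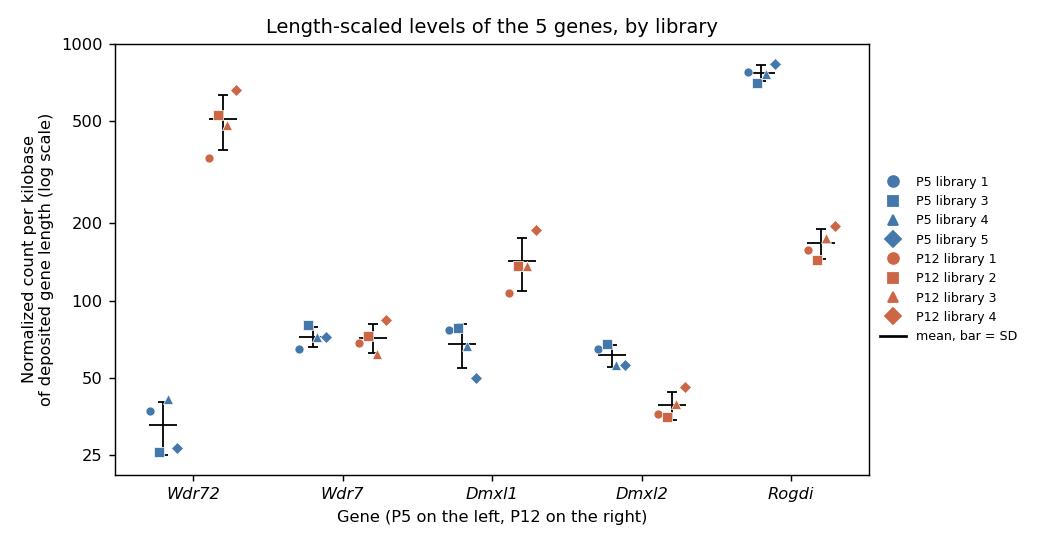
Normalized count per kilobase of deposited gene length (log scale) of the 5 genes in each library, P5 on the left and P12 on the right, with the mean and SD of 4 libraries. Wdr72 goes from the lowest mean at P5 (32.6) to the highest at P12 (511), and Rogdi from the highest (773) to 168.

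The subunits of the pump itself were measured beside the 5 genes. Of 26 listed V-ATPase subunit and accessory genes 24 could be tested. Of these 13 rose and 4 fell, beside 28.8% and 28.4% of all genes tested. The share called was 70.8% beside 57.2%, with a median log2 fold change of 0.36 beside 0.01. The libraries of the 2 ages did not overlap for 11 genes that were higher and 3 that were lower, beside 26.0% and 26.6% of all genes tested. Scaled to total counts alone 17 rose and 2 fell, beside 8885 and 2330 of all genes tested. The list was read by its counts and median alone, with no test of the list.

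In the V1 sector, 6 of the 11 genes tested rose and 2 fell, beside 28.8% and 28.4% of all genes tested. Atp6v1a, the catalytic A subunit, had normalized counts of 4740, 4251, 4209 and 3024 at P5, against 8277, 10474, 11444 and 16202 at P12. It rose with a log2 fold change of 1.52 with a standard error of 0.19 (edgeR adjusted p = 5e-05), and the ages did not overlap. Its partner Atp6v1b2, the widely used B subunit, went from 3158 ± 496 to 7817 ± 2314 (SD, n = 4 each), with a log2 fold change of 1.31 (edgeR adjusted p = 0.00013). The stalk subunit genes Atp6v1e1 and Atp6v1g1 rose with log2 fold changes of 1.08 and 0.72 (edgeR adjusted p = 3.5e-05 and 0.00033).

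Atp6v1b1, the B subunit known from proton-secreting cells of the kidney and inner ear, went the other way. It had 30, 40, 34 and 113 counts at P5, against 1, 3, 2 and 0 counts at P12. The P12 counts are at or under the floor of 3 counts, and the summed counts gave a P5 to P12 ratio of 49.5 with an exact 95% interval of 22.4 to 136.5, which covers counting error only. P5 library 5 held more of these counts than the other P5 libraries together, and without it the fitted log2 fold change went from -5.46 to -4.92. As a share of the B subunit genes per kilobase, Atp6v1b1 was 2.52% ± 2.03 at P5 (SD, n = 4), so Atp6v1b2 made up nearly all B subunit RNA at both ages. Atp6v1e2 had 1 count in all libraries together and Atp6v1g3 had 0, and neither was tested. A count of 0 allows up to 3 counts in a library, which at P12 is at most 3.01 on the normalized scale.

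In the V0 sector with its accessory proteins, 7 of the 13 genes tested rose and 2 fell, beside 28.8% and 28.4% of all genes tested. Atp6v0c, the proteolipid of the rotating ring, went from 1059 ± 76.1 to 2181 ± 246 (SD, n = 4 each), a log2 fold change of 1.04 (edgeR adjusted p = 1.9e-06). The largest rise was that of Atp6v0d2, a d subunit known from osteoclasts, with 20.6, 23.5, 43.5 and 24.3 normalized counts at P5 and 119, 151, 104 and 86.3 at P12. Its log2 fold change was 2.05 with a standard error of 0.27 (edgeR adjusted p = 6e-05), and it was only 3.21% ± 1.07 of the d subunit genes per kilobase at P12. Osteoclast markers (Acp5, Ctsk, Dcstamp, Ocstamp and Mmp9) rose in all 5 of 5 genes, beside 28.8% of all genes tested. Together they took 0.00647% to 0.0108% of counts at P5 and 0.0246% to 0.0657% at P12. Among the P12 libraries, both this summed share and Atp6v0d2 were highest in library 2 and lowest in library 4. The part of osteoclasts in the rise of Atp6v0d2 was not tested.

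Atp6v0a1 and Atp6ap1, named for high normalized counts that are not divided by length, did not pass the test. Atp6v0a1, an a subunit that anchors the pump in membranes, had a mean of 6681 at P5 and 6916 at P12, a log2 fold change of 0.05 (edgeR adjusted p = 0.84). Its P12 libraries ranged from 5090 to 10153, with library 4 highest. Its direction depended on the setting, since without P5 library 5 and P12 library 4 its log2 fold change was -0.26 (adjusted p = 0.024) and scaled to total counts alone 0.41 (adjusted p = 0.046). Atp6ap1, an accessory subunit, had means of 5316 and 4765 and a log2 fold change of -0.16 (edgeR adjusted p = 0.11), which turned to 0.21 (adjusted p = 0.026) when scaled to total counts alone and was -0.19 (adjusted p = 0.047) without P12 library 4. Among the a subunit genes per kilobase, Atp6v0a1 was 77.8% ± 1.59 at P5 and 74.2% ± 7.81 at P12 (SD, n = 4 each), and Tcirg1, the a subunit of osteoclasts, 7.23% ± 0.640 and 12.5% ± 4.21.

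**Figure D4:**
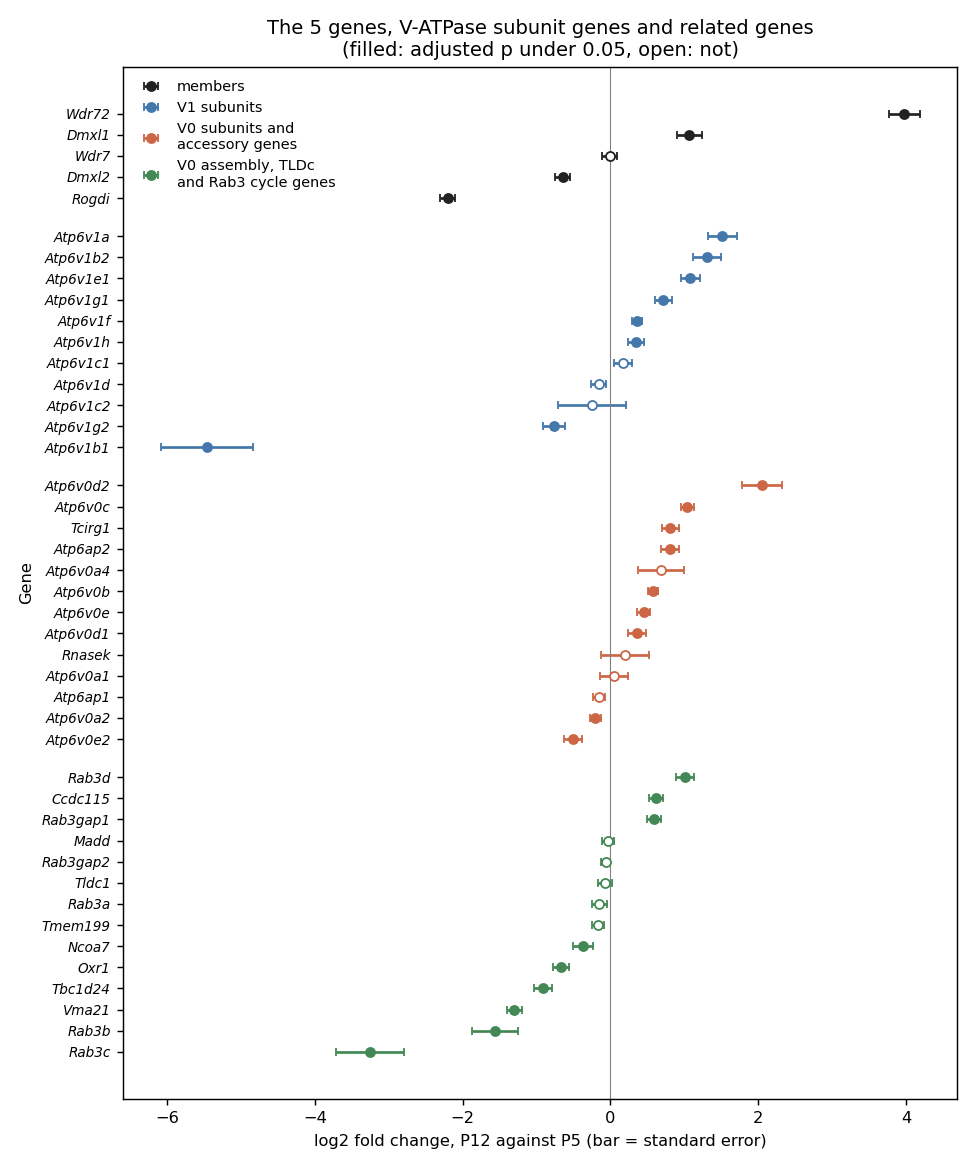
Log2 fold change at P12 against P5 for the 5 genes, the V-ATPase subunit genes and the V0 assembly, TLDc and Rab3 cycle genes that were tested, with bars of 1 standard error either side and filled points where edgeR's adjusted p was under 0.05. Wdr72 at 3.97 lies above every subunit gene, the largest of which is Atp6v0d2 at 2.05, and Atp6v1b1 lies lowest at -5.46, a fitted value that rests on at most 3 counts per P12 library.

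Several subunit genes shared their order of libraries with Wdr72 and Dmxl1. Of the 13 subunit genes that rose, 11 were lowest at P12 in library 1 and 10 were highest in library 4, as Wdr72 and Dmxl1 were. Of all genes called higher at P12, 27.1% were lowest in library 1 and 27.2% highest in library 4. At P5, 11 of the 13 were lowest in library 5, as Dmxl1 was and Wdr72 was not, beside 37.4% of all genes called higher. Secretory markers were also lowest at P12 in library 1 (1.47% of counts) and highest in library 4 (3.52%). Of the maturation markers, Klk4, Amtn and Slc24a4 had this order too in normalized counts, while Odam was lowest in library 1 and highest in library 2. Each of these maturation markers was lowest at P5 in library 5. The part of tissue makeup in this order was not tested.

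A further list held 3 genes of V0 assembly, 5 genes with a TLDc domain and 7 genes of the Rab3 cycle, which is tied to the rabconnectins. Of these 15 genes 14 were tested, and 3 rose and 6 fell, beside 28.8% and 28.4% of all genes tested. The share called was 64.3% beside 57.2%, with a median log2 fold change of -0.16. Libraries did not overlap for 3 genes that were higher and 5 that were lower, beside 26.0% and 26.6% of all genes tested. Scaled to total counts alone 7 rose and 5 fell, beside 8885 and 2330 of all genes tested.

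Vma21, a chaperone of V0 assembly in the endoplasmic reticulum, had normalized counts of 2926, 2975, 2940 and 2496 at P5, against 935, 1180, 1153 and 1327 at P12. It fell with a log2 fold change of -1.30 and a standard error of 0.10 (edgeR adjusted p = 1.1e-06). The other tested V0 assembly genes went differently, since Ccdc115 rose by a log2 fold change of 0.62 (edgeR adjusted p = 0.00032) and Tmem199 was at -0.17 (edgeR adjusted p = 0.10). Of the genes with a TLDc domain, whose proteins bind the V-ATPase, 3 of 4 tested fell, beside 28.4% of all genes tested. Of the 4, 2 were lower with no overlap of libraries, beside 26.6% of all genes tested. Among the TLDc genes that fell, Tbc1d24 had a log2 fold change of -0.91 (edgeR adjusted p = 0.00010). Oxr1, a gene of the response to oxidative stress, had one of -0.67 (edgeR adjusted p = 0.00028). Tldc2 was not tested, with 0 to 4 counts per library at P5 and 5 to 8 at P12.

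Promoter sequence was read from the same RefSeq table, which covers 250 bases before and 50 bases after each start. It held entries for 2 of the 5 members, Dmxl2 and Rogdi, and for 19 of the 26 V-ATPase subunit genes. The letters CACGTG, and the longer TCACGTG that holds them, were searched on both strands, since the longer form lies in the sites through which TFEB is known to act on lysosomal genes. Of all genes with an entry 8.09% held CACGTG and 4.29% TCACGTG. Neither Dmxl2 nor Rogdi held either in this window, while 4 of the 19 subunit genes, Atp6v1a, Atp6v0b, Atp6v0d1 and Atp6v0e, held both. The windows around 4 matches before a RefSeq start are shown with TCACGTG in capitals, for the subunit genes Atp6v1a and Atp6v0b and the V0 assembly genes Vma21 and Ccdc115, which changed in opposite directions. They lie at chr16:44139375-44139401, chr4:117887350-117887376 and chr1:34439698-34439724 on the reverse strand for Atp6v1a, Atp6v0b and Ccdc115, and at chrX:71816695-71816721 on the forward strand for Vma21.
Atp6v1a: tttttttaaaTCACGTGataggcttaa
Atp6v0b: tgcgcgggggTCACGTGgggtcggcgc
Vma21: cgcgggtaagTCACGTGagtgcttgca
Ccdc115: atttgggatgTCACGTGgtctaagacc

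Atp6v0b, the other proteolipid subunit, rose with a log2 fold change of 0.58 (edgeR adjusted p = 1.9e-05). The matched letters thus stood before a RefSeq start of Atp6v1a, Atp6v0b and Ccdc115, which rose, and of Vma21, which fell. TCACGTG also stood before a start of Rab3gap2, which did not pass the test (edgeR adjusted p = 0.41). It lay across or just after those of Atp6v0d1 and Atp6v0e, which rose (edgeR adjusted p = 0.022 and 0.0011). Tbc1d24, which fell, held only CACGTG. By the gene coordinates in the count table the matches of Atp6v1a and Vma21 lie inside the gene, after its first base. A match is a description of letters and no sign that a factor binds there.

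Of the 7 genes of the Rab3 cycle, 2 rose and 2 fell, near the 28.8% and 28.4% of all genes tested. Rab3d, the Rab3 form of exocrine secretory granules, went from 268 ± 25.3 to 539 ± 85.2 (SD, n = 4 each), a log2 fold change of 1.01 (edgeR adjusted p = 2.7e-05). Rab3c, known from neurons, had 97.7, 202, 88.3 and 158 normalized counts at P5, against 4.40, 10.1, 14.8 and 30.1 at P12, a log2 fold change of -3.25 (edgeR adjusted p = 0.00010), which was -3.84 without P12 library 4. It was highest in P5 libraries 3 and 5, where the neuron markers were also highest, and the part of neurons in its fall was not tested. Rab3b fell with a log2 fold change of -1.56 (edgeR adjusted p = 0.0012). Rab3gap1, a subunit of the Rab3 GTPase-activating protein, rose with a log2 fold change of 0.59 (edgeR adjusted p = 0.00019).

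The genes with the pattern most like that of each member were found as the smallest Euclidean distance between log2 profiles over the 8 libraries, each centred on its own mean, among 11344 tested genes with a mean normalized count of at least 100. Nearest to Wdr72 was Slc39a2, a zinc transporter gene, at a distance of 0.54, beside a median of 5.65 over the genes compared. Cox6b2, Ece1, Rras2 and Fxyd4 followed at 0.70 to 0.79. Ece1, which encodes an endothelin-converting enzyme, went from a mean of 1873 to 24333 normalized counts.

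The V1 stalk subunit gene Atp6v1e1 was among the 5 genes nearest to Dmxl1, at a distance of 0.35 beside a median of 1.75, after Hspa4l (0.26) and Vsir (0.34) and before Nav3 and AU020206. Nearest to Rogdi were Mpzl1, Chac1, Celsr1, Gdpd5 and Lrrc8d, at 0.26 to 0.35 beside a median of 3.18. Nearest to Dmxl2 were Ube2e3, Ppp2r2d, H1f0, Pdp1 and Phf10, and to Wdr7 Slc4a1ap, Vps45, Gtf3c3, Cep89 and Lxn, at 0.17 to 0.23 and 0.19 to 0.21. None of the 5 members was among the nearest genes of another. The distances are a description of 8 libraries that share 2 ages.

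The nearest tested protein-coding gene on each side of each member was read, to see whether a neighbour moved with it. Genes that were not tested or do not encode proteins were passed over, so a closer gene may lie between. The neighbours of Wdr72, Unc13c at 141390 bases and Fam214a at 669576 bases, had log2 fold changes of -0.67 (edgeR adjusted p = 0.14) and 0.03 (edgeR adjusted p = 0.86). Wdr72 thus had no neighbour that passed the test. Rogdi, which fell, lies 421 bases from Smim22, which rose from 3.62 to 31.2 normalized counts (log2 fold change 3.09, edgeR adjusted p = 0.00013), and 356 bases from Glyr1, which fell with a log2 fold change of -0.32 (edgeR adjusted p = 0.00089). The P5 mean of Smim22 lies near the floor of 3 counts, which at P5 is 3.18 to 3.95 on the normalized scale. Tnfaip8, at 13954 bases from Dmxl1, fell with a log2 fold change of -0.82 (edgeR adjusted p = 0.00026), opposite to Dmxl1. Cib2, at 43168 bases from Dmxl2, rose with one of 1.07 (edgeR adjusted p = 2.2e-06), opposite to Dmxl2. Of the other neighbours, St8sia3 beside Wdr7 fell with a log2 fold change of -3.66 (edgeR adjusted p = 0.00057). Its P12 mean was only 3.23 normalized counts. Gldn beside Dmxl2 rose with one of 1.18 (edgeR adjusted p = 0.013). Txnl1 beside Wdr7 and Dtwd2 beside Dmxl1 did not pass the test (edgeR adjusted p = 0.77 and 0.28).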

How the data were processed

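The authors deposited a table of raw counts per gene for the 8 libraries, with coordinates and gene lengths. Per the labels RNA was captured by its polyA tail. The aligner, counting tool and use of strand are not given in the sources used here, so reads of a gene and its antisense partner cannot be told apart. The submitters' processing notes name CASAVA and the mm39 build, but the coordinates in the table are those of GRCm38 and are given as such.

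Counts were tested with edgeR 4.0.16 (R 4.3.3): filterByExpr, TMM scaling, the quasi-likelihood test and Benjamini-Hochberg adjustment over all genes tested, at a threshold of 0.05. The fit was tested on simulated data. Ratios and single genes, on log2(normalized count + 1), had the exact two-sided permutation test of 4 against 4 libraries. Alternatives used DESeq2 1.42.0, limma-voom (limma 3.58.1), other scalings and filters, fewer libraries and a replicate block. Every pair of replicates differed by more than sampling noise, so each library counted as 1 sample.

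The members, gene lists and tests were chosen with earlier results of these data known. In each list the genes named were those not tested, up to 6 with the largest called change, and any above Wdr72 in normalized count at P12. Tmem199, Ccdc115, Rab3gap1, Tcirg1, Atp6v0b and the neighbouring genes were named after their values were seen.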

Additional observations from a re-analysis of the deposited data

Results flagged for a closer look

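In 106 groups of 4 libraries, the highest or lowest library was compared with the others by Dixon's test at the 95% level. It lay apart in 5 groups, and chance alone gives about 1 in 20 groups, here 5.3. All 5 were at P5, and 4 of them concerned P5 library 5. In that library the normalized count of Atp6v1b1, a V1 B subunit, was 119.6, against 38.6 to 44.8 in the other P5 libraries. The normalized count of Atp6v1c1, a V1 C subunit, was 1350 there, against 1653 to 1679. That of the V0 chaperone Vma21 was 2496, against 2926 to 2975. The log2 ratio of Dmxl1 to Dmxl2 was 0.56, against 0.93 to 0.97. The fifth was Atp6v0d2, a V0 d subunit, with a normalized count of 43.5 in P5 library 4, against 20.6 to 24.3. The calls of Atp6v1b1, Vma21 and Atp6v0d2 at P12 against P5 held with any single library left out.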

How the results depend on the processing

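Wdr72, Dmxl1, Dmxl2 and Rogdi kept their direction and their call in all 18 alternative fits, with log2 fold changes of 3.74 to 4.34, 0.78 to 1.43, -0.77 to -0.27 and -2.29 to -1.83, and so did all 10 ratios keep their direction, although with a library left out the permutation test cannot pass 0.05. Scaling to total counts moved the median of all genes to 0.38 and the calls to 8885 genes higher and 2330 lower. Under it Wdr7 and Atp6ap1 turned to 0.36 and 0.21 (adjusted p = 0.026), and Atp6v0a1 reached 0.41 (adjusted p = 0.046). Atp6ap1 passed the threshold at -0.19 (adjusted p = 0.047) without P12 library 4. Wdr7 was at 0.007 with no filter, and between -0.099 and 0.056 with each library left out. Atp6v0a1 lay between -0.20 (without P12 library 4) and 0.165 with each library left out, at -0.02 without P5 library 5, and at -0.26 without both (adjusted p = 0.024). With each library left out 8708 to 10030 genes and 15 to 19 V-ATPase subunit genes were called. Per kilobase of coding length Dmxl1 stood at place 2 and Wdr7 at 3 at P5, and per kilobase of GENCODE M21 exonic length Dmxl1 stood at 2, Dmxl2 at 3 and Wdr7 at 4. Both lengths were added after seeing the data, and a planned one from protein length was not run. Libraries of the same number, 1, 3 or 4, had deviations that correlated at only -0.03 to 0.02, so the numbers were not taken as pairs. With a replicate block over these 6 libraries Wdr72 was at 3.84 and 15 V-ATPase subunit genes were called, against 14 without the block, and the block changed no call of a member. The cause of these changes was not tested. Depth limits Atp6v1b1, Atp6v1e2, Atp6v1g3 and Tldc2.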

Other observations

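Of 56 tested genes whose symbol begins with Wdr, a list of genes named for WD40 repeats and drawn up after earlier results were known, 13 were higher and 10 lower at P12 by edgeR's test, 41.1% beside 57.2% of all genes tested, with a median log2 fold change of -0.004. Wdr72 had the highest at 3.97, followed by Wdr62, a spindle pole protein gene, at 1.48 (edgeR adjusted p = 0.00017) and Wdr1, an actin disassembly factor gene, at 1.06 (edgeR adjusted p = 1e-05). The lowest was Wdr17 at -3.68. Wdr7, the closest relative of Wdr72, lay at place 29 of the 56.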
